A study of Mus musculus with 12 samples.

Results

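Of 138502 accessible regions tested in mouse hepatocytes, 10052 (7.26%) lay more than 100 kb from the span of any protein-coding gene, and these distal intergenic regions are described here. The assay was ATAC-seq, where a transposase cuts open DNA and leaves sequencing adapters at the cuts. A region was tested when overlapping peaks appeared in at least 3 of the 12 libraries' lists of strongest peaks. Membership used position and presence in the lists, and no comparison between groups. The remaining regions comprised 84986 (61.4%) that touched the span of a protein-coding gene and 43464 (31.4%) that lay outside such spans but within 100 kb of one.

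Distal accessible regions are often enhancers, stretches of DNA bound by transcription factors that act on a gene over long distances through looping of the chromatin. Long gene-poor stretches, sometimes called gene deserts, frequently flank genes for transcription factors and signalling molecules, and their enhancers tend to be used in particular cell types. Accessibility alone does not show whether a region is an enhancer or which gene it acts on, so the flanking genes named here give a position and no target.

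The 12 libraries came from 12 mice, 3 in each of 4 groups. FBXL5F/F mice carry floxed alleles of Fbxl5 without Cre (floxed controls), and Alb-Cre/FBXL5F/F mice carry the same alleles with Cre driven by the albumin promoter, which is active in hepatocytes (Fbxl5-deleted mice). FBXL5 is the iron-sensing adaptor of a ubiquitin ligase that degrades iron regulatory protein IRP2. For 2 weeks, mice of both genotypes ate either standard chow or food with 0.1% DDC, a dihydrocollidine compound that causes porphyrin to build up and injures bile ducts. Strain, sex and age were not stated. Hepatocytes were obtained by collagenase perfusion of the liver in 2 steps.

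The authors' lists held 137004 to 202874 peaks in 10 libraries, and 261938 and 260515 in Fbxl5-deleted standard-diet libraries 1 and 3, which stood apart; 137000 peaks were kept in each. The median fold enrichment of the kept peaks was 4.48 to 5.40 in the 6 DDC libraries and 3.67 to 4.59 in the 6 standard-diet libraries. All 8 hepatocyte marker genes examined (among them Alb, Apob and Hnf4a) had a region in all 12 lists within 1 kb of the gene. Regions were also found at markers of other liver cells: 3 of 4 macrophage genes (none at Clec4f), 3 of 4 stellate cell genes (none at Des), 4 of 4 sinusoidal endothelial genes and 3 of 4 cholangiocyte genes (none at Krt19). A level in these data is a region's rank within its library mapped to a common scale of log2 fold enrichment over the background that the peak caller estimated, called its value below. A region absent from a library's list was given the lowest value, 1.27. Where all 3 lists of a group lack the region, a difference from that group therefore has no true size. Where only some lists of a group lack it, the filled values still enter the difference, so its size depends in part on where the lists end. Equal filled values add no spread of their own, and their effect on the SE and p of such regions was not tested.

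Most distal regions contained no gene at all: 7732 of 10052 (76.9%) overlapped no annotated gene of any kind, and 1374 lay more than 100 kb from every annotated gene. Long non-coding RNA (lncRNA) genes overlapped 2113 members, pseudogenes 112, gene segments of immunoglobulin or T cell receptor loci 26 and miRNA hairpins 6. The start of an annotated lncRNA gene lay inside 146 members (150 genes). Sequences are shown for 4 of these starts, the pair with the largest rises and the pair with the largest falls on DDC in floxed controls, because their values are followed through the results; they were chosen after their values were seen. Each is the RefSeq window (GRCm38.p6, the assembly of mm10) from 250 bases before to 50 bases after the annotated start, 5′ to 3′ on the gene's strand, with the 50 bases from the start on in capitals. The windows are chr7:71216799-71217098 on the plus strand for 6030442E23Rik, chr5:64610650-64610949 on the minus strand for Gm3716, chr4:53270183-53270482 on the minus strand for Mexis and chr8:115856003-115856302 on the plus strand for Gm31037. The first and second lie wholly inside their member; the member covers 132 bases of the Mexis window and 53 of the Gm31037 window, including the capitals in both.
6030442E23Rik: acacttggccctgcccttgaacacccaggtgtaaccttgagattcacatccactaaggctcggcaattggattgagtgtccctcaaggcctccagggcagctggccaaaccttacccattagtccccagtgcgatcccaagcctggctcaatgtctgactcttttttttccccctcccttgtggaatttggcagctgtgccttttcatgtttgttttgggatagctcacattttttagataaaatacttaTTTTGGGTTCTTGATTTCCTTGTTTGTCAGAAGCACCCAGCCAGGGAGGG
Gm3716: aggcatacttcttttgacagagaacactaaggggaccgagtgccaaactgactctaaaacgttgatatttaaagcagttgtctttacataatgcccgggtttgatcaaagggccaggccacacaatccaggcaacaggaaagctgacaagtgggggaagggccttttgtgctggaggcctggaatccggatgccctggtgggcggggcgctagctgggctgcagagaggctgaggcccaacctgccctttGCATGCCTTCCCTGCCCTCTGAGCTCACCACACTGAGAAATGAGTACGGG
Mexis: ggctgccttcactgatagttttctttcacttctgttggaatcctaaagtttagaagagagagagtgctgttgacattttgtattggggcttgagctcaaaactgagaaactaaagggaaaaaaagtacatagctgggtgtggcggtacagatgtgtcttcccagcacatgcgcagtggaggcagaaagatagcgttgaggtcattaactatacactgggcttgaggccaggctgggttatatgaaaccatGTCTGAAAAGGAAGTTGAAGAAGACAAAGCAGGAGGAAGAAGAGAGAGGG
Gm31037: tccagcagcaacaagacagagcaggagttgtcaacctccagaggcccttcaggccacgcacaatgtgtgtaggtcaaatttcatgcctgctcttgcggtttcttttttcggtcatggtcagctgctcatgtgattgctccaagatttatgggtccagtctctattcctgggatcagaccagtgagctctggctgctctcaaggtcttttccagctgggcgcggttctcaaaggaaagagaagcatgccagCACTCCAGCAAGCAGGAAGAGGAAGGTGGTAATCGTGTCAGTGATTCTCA

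These windows had a GC content of 48.7%, 54.7%, 45.0% and 51.3% in the order shown. The motifs searched on both strands were AP-1 (TGANTCA), FOXA (TGTTTAC), C/EBP (TTNNGCAA), HNF4 (CAAAGNCCA) and NRF2 (TGACNNNGC), where N is any base; hits of different motifs may overlap. None of them occurred in the 4 windows. Over the 150 windows of lncRNA starts in distal regions, the C/EBP letters occurred in 30 (20.0%), against 11.9% of 11574 lncRNA windows and 10.8% of all 32817 windows in the table. The FOXA letters occurred in 9 of the 150 (against 4.84% of lncRNA windows), the AP-1 letters in 14 (9.33%, against 9.31%), the NRF2 letters in 15 (10.0%, against 11.3%) and the HNF4 letters in none (against 2.45%). A match is a run of letters and not a measured binding site, and these shares were not tested.

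The miRNA hairpins that the 6 members overlapped included Mir802, a miRNA abundant in liver, and Mir1251, which lies within the lncRNA gene Rmst. The mature products of both are shown because the first marks a member with steady values and the second the only one of the 6 that was called between diets. Capitals mark the seed, bases 2 to 8, and the sequences are RefSeq's for GRCm38.p6.
mmu-miR-802-5p: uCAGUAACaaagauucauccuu
mmu-miR-802-3p: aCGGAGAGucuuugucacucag
mmu-miR-1251-5p: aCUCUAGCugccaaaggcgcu
mmu-miR-1251-3p: cGCUUUGCucagccaguguag

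The region over the Mir802 hairpin, chr16:93369515-93370116 between Runx1 and Setd4, was in all 12 lists with a mean value of 3.06. Its values were 3.14, 3.11 and 2.89 in control standard libraries and 2.93, 3.14 and 3.26 in control DDC libraries, and the groups overlapped. The difference of 0.07 ± 0.19 (SE) was not called (limma adjusted p = 0.889). The region over Mir1251, chr10:92137001-92137436, had values of 2.37, 2.39 and 2.42 in control standard libraries and was absent from all 6 DDC lists, so its fall of 1.12 has no true size (limma adjusted p = 0.0167). That call did not hold without control standard library 3 (adjusted p = 0.0506), control DDC library 1 (0.0536) or control DDC library 2 (0.0616). It was also lost with all listed peaks (limma adjusted p = 0.0876) and when a peak had to cover 50% of its region (0.0569). Mir137 lay under a region in 12 lists with a mean value of 2.55, and Mir5099 only partly under one in 12 lists at 1.89. Mir344d-2 lay under a region in 11 lists at 2.31 and Mir6379 under one in 5 lists at 1.42. None of these regions was called in either diet comparison.

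Distal members were sparse for the space they occupied. Stretches more than 100 kb from protein-coding genes made up 737.8 Mb, 28.4% of the bases examined, and held 13.6 regions per Mb; the 23 members beyond the first or last protein-coding gene of a chromosome are left out of this count. Gene spans held 82.5 regions per Mb and the stretches within 100 kb of them 52.2. Regions in all 12 lists followed the same order, with 4.87 per Mb in the distal stretches against 38.3 in gene spans and 22.4 near them. The share of a chromosome's regions that were distal ran from 3.63% on chromosome 19 and 3.79% on chromosome 11 to 10.6% on chromosome 3 and 12.7% on chromosome 13. Members often had company, since 6272 (62.4%) had another member within 10 kb.

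Distal members were also narrower, found in fewer libraries and weaker than other regions. Their median width was 438 bp, against 473 bp for all other regions, and 35.8% were in all 12 lists, against 45.2%. At the low end, 28.3% of members were in 3 to 5 lists, against 24.2% of other regions. The mean value of distal members minus that of other regions was negative in 12 of 12 libraries, from -0.18 to -0.01, with a mean of -0.085 ± 0.047 (SD, n = 12). An exact two-sided sign-flip permutation test over the 12 libraries gave p = 0.000488, the smallest it can give. Absent regions entered these means at the lowest value, so presence in fewer lists by itself lowers the mean. Among regions in at least 6 lists the mean difference was -0.0596 (same sign-flip permutation test, p = 0.00391). In each of the 12 libraries the distal peaks also had a smaller median width and a smaller share with a −log10 q of at least 5 than the other kept peaks. The median fold enrichment of the distal peaks was lower than that of the others in 11 of the 12 libraries; in control standard library 3 it was higher, at 4.55 against 4.36.

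**Figure D1:**
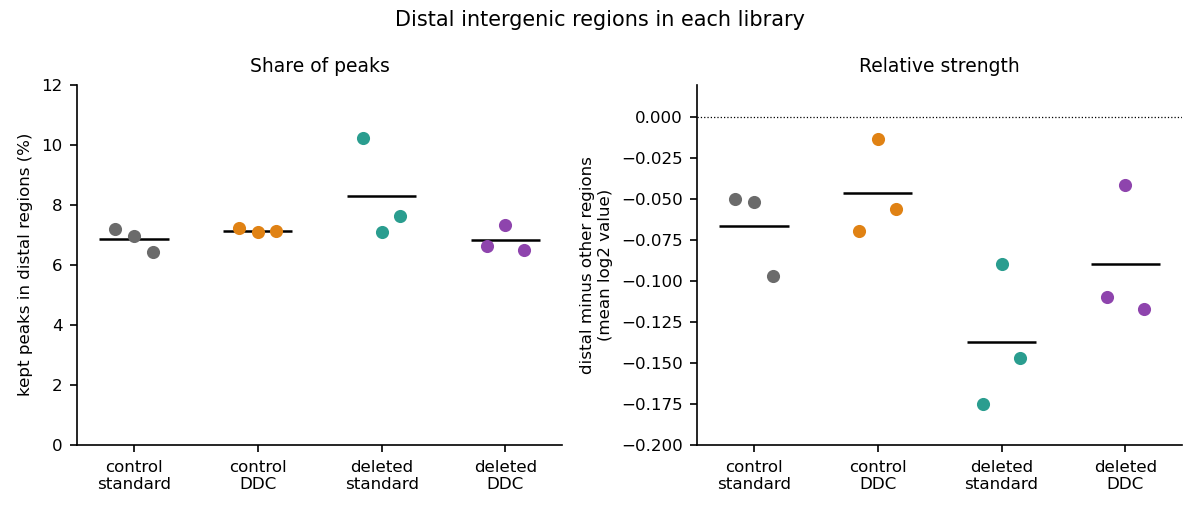
Distal intergenic regions in each of the 12 libraries: on the left the share of a library's 137000 kept peaks that lay in distal regions (%), on the right the mean log2 value of distal regions minus that of other regions. Points are libraries and lines group means; all 12 libraries lie below 0 on the right, and Fbxl5-deleted standard library 1 is highest on the left at 10.2%.

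The distal share of kept peaks was 6.86% ± 0.39 (SD, n = 3) in control standard, 7.14% ± 0.0729 in control DDC, 8.30% ± 1.67 in Fbxl5-deleted standard and 6.81% ± 0.44 in Fbxl5-deleted DDC libraries. The groups overlapped, apart from the value of 10.2% in Fbxl5-deleted standard library 1 and 7.61% in library 3, which lay above the other 10. By exact two-sided permutation tests within strata (400 relabellings, Benjamini-Hochberg over 4 tests), the share differed by -0.606 percentage points between DDC and standard diet (p = 0.37, adjusted 0.425) and by 0.557 between deleted and control mice (p = 0.425, adjusted 0.425). Both differences changed sign without Fbxl5-deleted standard libraries 1 and 3, to 0.00158 and -0.0502. By the same exact permutation tests, the relative strength of distal regions differed by 0.034 log2 between diets (p = 0.125, adjusted 0.25) and was lower in deleted mice (difference -0.0571, p = 0.03, adjusted 0.12). Neither passed after adjustment.

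The strongest member was a narrow region on chromosome X, chrX:68363350-68363625 (276 bp), 314.9 kb from Fmr1. The authors' fold enrichment there was 21.8 to 37.6 in the 6 standard-diet lists and 40.3 to 46.6 in the 6 DDC lists. Its values were 5.19, 5.32 and 4.38 in control standard and 5.48, 5.48 and 5.32 in control DDC libraries, which touched at 5.32, and the difference of 0.46 ± 0.15 was not called (limma adjusted p = 0.0672). Next came chr14:114062584-114063085, 1029.1 kb from the glypican gene Gpc5, with values from 4.79 to 5.11 over all 12 libraries. It was followed by regions between Wac and the Wnt receptor gene Fzd8 (4.68 to 5.08), between the interferon gamma gene Ifng and Dyrk2 (4.53 to 4.99), within the lncRNA gene 6030407O03Rik near the focal adhesion gene Tns1 (4.42 to 4.93) and between C9orf72 and Lingo2 (4.23 to 5.11). The mean value over all members ran from 1.29 to 5.20, and 5 of the 6 strongest members were not called in either diet comparison. The exception, between C9orf72 and Lingo2, was higher on DDC in controls by 0.40 ± 0.12 (limma adjusted p = 0.0433), a call that was lost when any 1 of 9 libraries was left out, with adjusted p from 0.0513 to 0.234.

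The 4 members farthest from protein-coding genes lay more than 2 Mb from the nearest. Of these, 3 were between Cntnap5b, a neurexin family gene, and Cdh20, a cadherin gene, on chromosome 1, in 12, 11 and 12 lists. The one at chr1:102560908-102561658 had values of 3.65, 2.85 and 2.27 in control standard and 1.85, 3.00 and 2.79 in control DDC libraries, and the groups overlapped. The fourth, between Celf4 and Pik3c3 within the lncRNA gene Gm33860, was in 3 lists, with values of 1.27 to 1.66. None of the 4 was called. The widest members were 2853 bp (chr1:90445801-90448653, between the chemokine receptor gene Ackr3 and Cops8), 1977 bp (between Rps24 and Zmiz1), 1970 bp (between Myo16 and the insulin receptor substrate gene Irs2) and 1930 bp (between the prohormone convertase gene Pcsk1 and Ell2). All 4 were in 12 lists and none was called. Width and strength did not go together there: the widest had values of 1.73 to 2.75 and the one near Irs2 3.86 to 4.18.

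At the 100 kb limit, the members just outside it were near Asap1 (in 9 lists), Slc39a11 (12 lists) and Cd83 (6 lists), with control standard values of 1.27 to 1.34, 1.81 to 2.00 and 1.27 to 2.25. The regions just inside it, which are not members, were near Rplp1 (7 lists), Gramd3 (7 lists) and Magi3 (12 lists), with control standard values of 1.41 to 1.55, 1.27 to 1.89 and 2.27 to 2.85.

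The first comparison asks how the DDC diet altered accessibility in mice with intact Fbxl5. In floxed controls, 675 members rose and 432 fell (limma adjusted p under 0.05, adjusted over all tested regions), 11.01% of members, beside 7.01% of all regions tested. Rises made up 6.72% of members against 4.66% of all regions, and falls 4.30% against 2.35%. The median difference was 0.01 log2 over members and -0.01 over all regions. Of the 675 that rose, 225 were absent from all 3 control standard lists, and of the 432 that fell, 117 were absent from all 3 control DDC lists; 369 called members were in all 12 lists. The count was 685 without control standard library 2, 702 without control standard library 3 and 591 without control DDC library 2, with 430, 395 and 399 rises in that order. The falls went from 432 to 255 without control standard library 2 and to 209, 192 and 272 without control DDC libraries 1, 2 and 3. When a peak had to cover 50% of its region, 395 rose and 152 fell. The split between directions depended on the scale: 860 rose and 255 fell with fold enrichments not ranked, and 1313 rose and 172 fell with all listed peaks.

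Some measures of the libraries moved with diet in the controls, and their part in the counts was not tested. DDC lists were longer (179709 to 202874 peaks against 137004 to 151794) and their median kept fold was higher (4.74 to 5.40 against 4.37 to 4.59). The mean value of the regions at macrophage markers was 2.09 to 2.30 in control DDC and 1.96 to 2.06 in control standard libraries, with no overlap. The regions at the T cell markers Cd3e and Cd4 also separated, in the opposite direction, at 2.28 to 2.47 in control DDC and 2.54 to 2.95 in control standard libraries. At hepatocyte markers it was 2.53 to 2.68 and 2.66 to 2.82, at cholangiocyte markers 2.39 to 2.85 and 2.55 to 2.65, at stellate cell markers 3.18 to 3.34 and 3.26 to 3.48, and at endothelial markers 3.28 to 3.47 and 3.38 to 3.59, and these 4 sets overlapped between diets. Values at endothelial and stellate cell markers lay above those at hepatocyte markers on both diets, so these values do not measure how many cells of a type were present. If cells of another type were present, a region's level cannot tell a change within hepatocytes from a change in their number.

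The share called rose with distance from genes up to 100 kb and then levelled. In controls it was 5.99% in gene spans, 6.13% up to 10 kb away, 9.37% at 10 to 50 kb and 9.76% at 50 to 100 kb. Beyond the limit it was 11.01% at 100 to 200 kb, 11.04% at 200 to 500 kb, 11.4% at 500 kb to 1 Mb and 9.52% over 1 Mb. The direction shifted among the members: rises went from 7.11% at 100 to 200 kb to 2.93% over 1 Mb, and falls from 3.90% to 6.59%, where the last class held 273 members with 8 rises and 18 falls. Members were called more often than other regions within each of 4 equal classes of mean value: 3.22% against 2.21% in the weakest class, 13.2% against 8.59% and 16.4% against 9.96% in the middle classes, and 11.5% against 6.05% in the strongest. The same held among regions in all 12 lists, at 10.2% against 5.65%. In absolute numbers the order was the opposite, with 1.50 called regions per Mb in the distal stretches, 4.21 within 100 kb of genes and 4.94 in gene spans. These shares are given as a description, with no test.

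**Figure D2:**
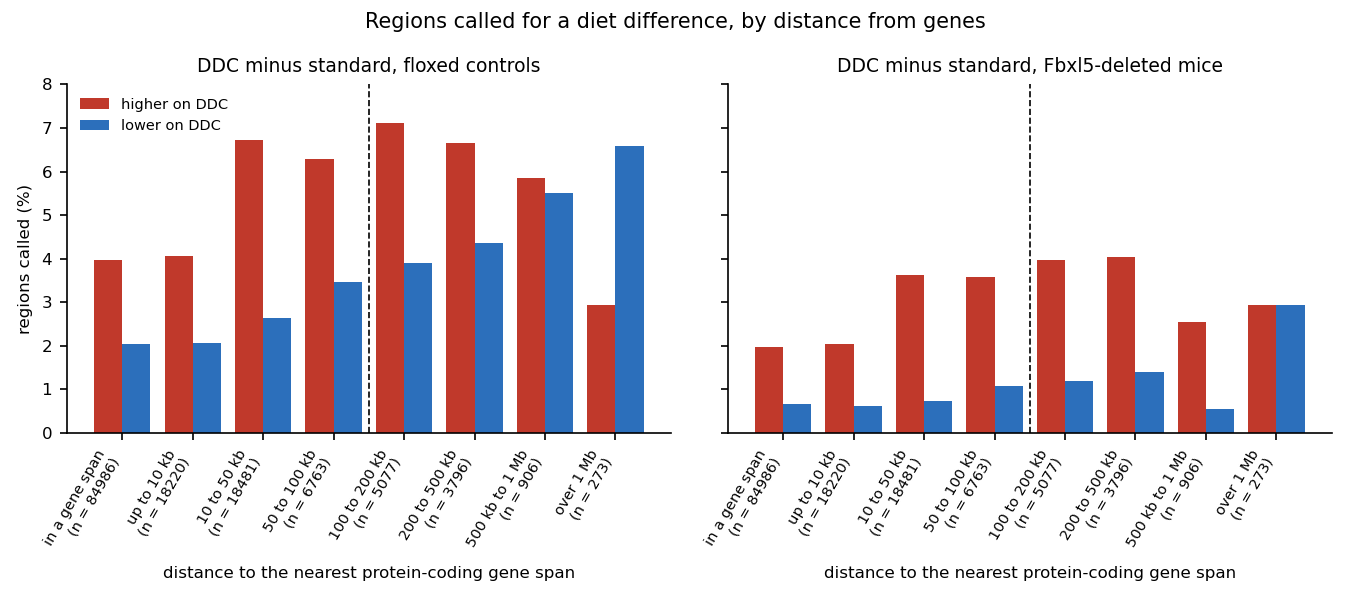
Share of regions called higher or lower on DDC (%), by distance to the nearest protein-coding gene span, in floxed controls (left) and Fbxl5-deleted mice (right); n is the number of regions in a class and the dashed line marks 100 kb. In controls, rises peak at 7.11% at 100 to 200 kb and fall to 2.93% over 1 Mb, while falls climb from 2.03% in gene spans to 6.59%.

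The largest rise was between Nucb2, which encodes the precursor of nesfatin, and Xylt1, whose enzyme starts glycosaminoglycan chains, at chr7:117090731-117091457. Its values were 1.89, 1.45 and 1.27 in control standard libraries and 3.91, 4.29 and 4.12 in control DDC libraries. Every DDC value lay far above every standard value, and the difference was 2.57 ± 0.26 log2 (SE, limma adjusted p = 1.15e-05). The region at chr9:85011183-85011766, 308.7 kb from Tent5a, a poly(A) polymerase gene, went from 1.40, 1.45 and 1.27 to 4.02, 4.19 and 3.53, a rise of 2.54 ± 0.23 (limma adjusted p = 4.38e-06). It was listed in 2 of the 3 control standard libraries, in no Fbxl5-deleted standard library and in all 6 DDC libraries. Another, chr1:15070033-15070681 between the cation channel gene Trpa1 and the potassium channel gene Kcnb2, went from 1.27, 1.90 and 1.27 to 3.96, 4.38 and 3.68 (2.53 ± 0.28, limma adjusted p = 2.02e-05). Again no standard value reached the lowest DDC value.

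The next rises were of like size. The region at chr10:16589421-16589895 lay in a long stretch between Nmbr and Cited2, which encodes a co-regulator that binds CBP and p300, 1133.3 kb from the latter. It had control standard values of 1.27, 2.64 and 1.27 and control DDC values of 3.96, 4.51 and 4.22, a rise of 2.50 ± 0.29 (limma adjusted p = 3.03e-05). The region at chr17:10054360-10054877, 151.6 kb from the RNA-binding protein gene Qk, rose by 2.50 ± 0.29, from 1.40, 1.68 and 1.27 to 3.77, 4.25 and 3.82. One at chr1:194437174-194437812, 182.0 kb from the semaphorin receptor gene Plxna2, rose by 2.47 ± 0.31, from 1.40, 1.68 and 1.27 to 3.91, 4.54 and 3.30. In all 6 of these members the control groups did not overlap, and no single library left out ended a call in controls. The region near Qk was also called in deleted mice (1.395, limma adjusted p = 0.00943). That call was lost without deleted DDC library 2 (adjusted p = 0.0627), with all listed peaks (0.071) and when only the 6 deleted libraries were fitted (0.054).

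The largest fall was at chr19:26419608-26420346, 184.7 kb from Smarca2, which encodes a catalytic ATPase of the SWI/SNF chromatin remodelling complex. Its values were 4.25, 3.90 and 4.09 in control standard libraries and 1.66, 1.27 and 1.56 in control DDC libraries, a fall of 2.58 ± 0.24 log2 (difference -2.58, limma adjusted p = 4.38e-06). The region was among the stronger members on the standard diet and absent or near the lowest value on DDC. A region in all 12 lists at chr1:107837666-107838245, between Serpinb8 and the cadherin gene Cdh7, went from 3.99, 3.89 and 4.30 to 2.43, 1.64 and 2.05 (-2.02 ± 0.29, limma adjusted p = 0.000243). One at chr18:81269598-81270139, within the lncRNA gene Gm30192 and 282.6 kb from the zinc finger gene Sall3, went from 3.07, 3.49 and 3.36 to 1.42, 1.27 and 1.27 (-1.99 ± 0.31). The control groups did not overlap in any of the 3.

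The other 3 of the 6 largest falls lay near Dpyd, Btg1 and Prim2. The region at chr3:118252937-118253513, 308.6 kb from the pyrimidine-degrading enzyme gene Dpyd, went from 3.66, 3.79 and 3.93 to 1.27, 2.02 and 2.18 (-1.97 ± 0.24). The region at chr10:96743056-96743546, 120.2 kb from Btg1, an inhibitor of proliferation, had control standard values of 2.75, 3.21 and 3.67 and was absent from all 3 control DDC lists, so its fall has no true size (limma adjusted p = 0.000174). The region at chr1:33278805-33279381, 174.4 kb from the primase subunit gene Prim2, went from 4.09, 3.36 and 3.04 to 1.66, 1.90 and 1.35 (-1.86 ± 0.31). As with the others, the control groups were separate. Of the 12 members with the largest rises and falls, those near Xylt1, Kcnb2 and Prim2 lost the call in controls when a peak had to cover 50% of its region (limma adjusted p of 0.108, 0.241 and 0.221), and the one near Dpyd was not among the regions tested under that setting. Over all 53 calls of named members that could be refitted so, in either diet or genotype comparison, 27 were lost.

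**Figure D3:**
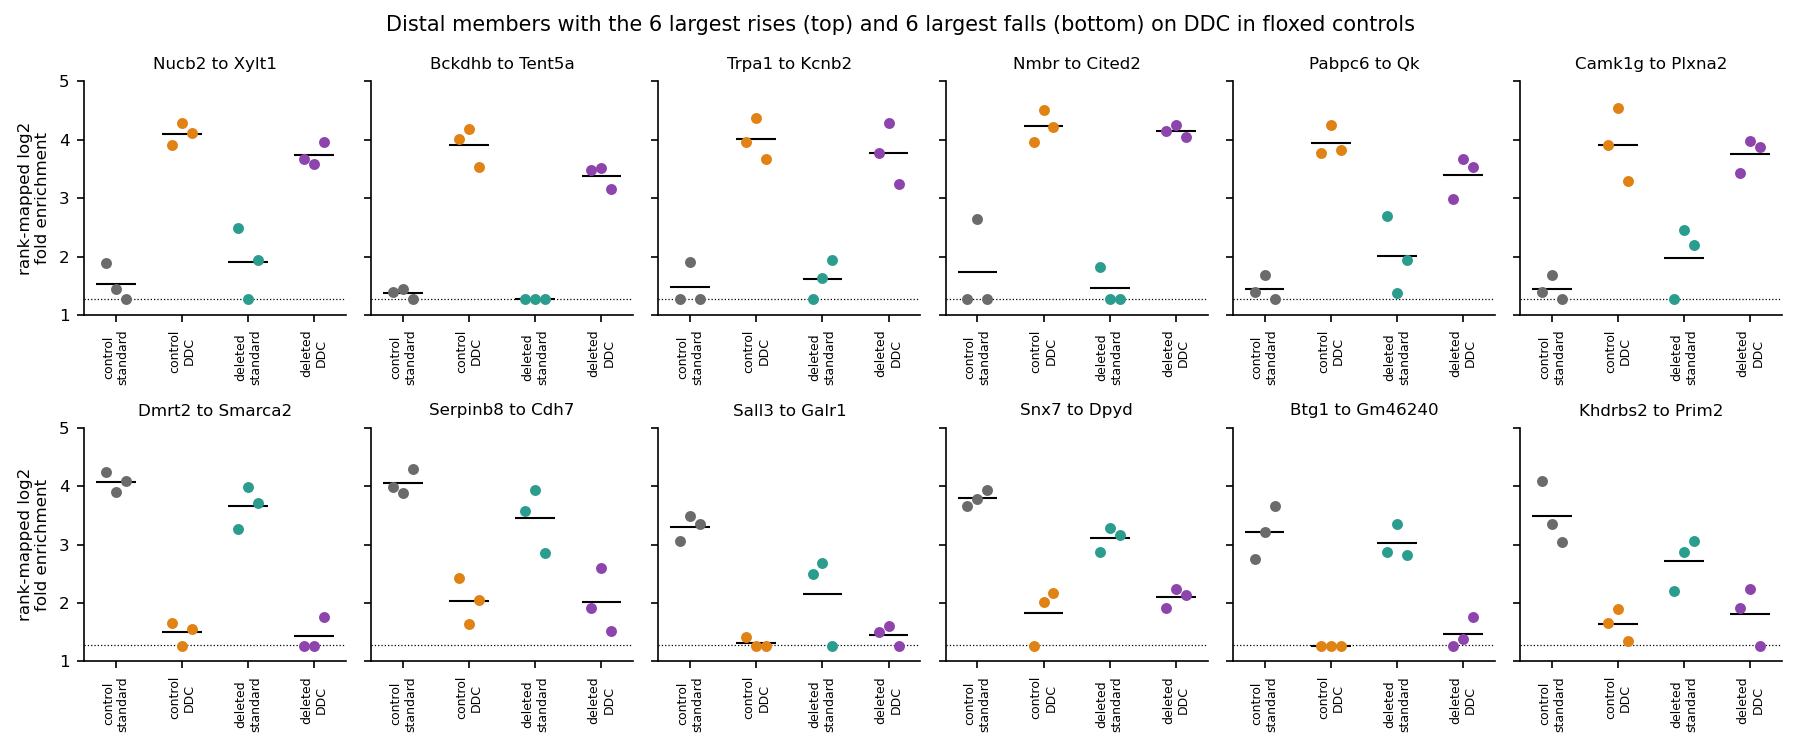
Rank-mapped log2 fold enrichment in each library for the distal members with the 6 largest rises (top) and 6 largest falls (bottom) on DDC in floxed controls, titled by flanking genes; points are libraries, lines group means, and the dotted line is the value given to an absent region, 1.27. Control standard and control DDC points do not overlap in any panel.

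The 10052 members fell into 1123 intervals free of protein-coding genes, called gene-free here, with a median of 5 members per interval. They lay between 2 neighbouring protein-coding genes, apart from those of the 23 members beyond the first or last such gene of a chromosome. Non-coding genes can lie within them. The 140 intervals with 20 or more members held 42.9% of all members. A called member in controls occurred in 557 intervals and at least 2 in 266. Of these 266, all called members were higher in 97, all were lower in 42, and both directions occurred in 127. The most populated interval ran from Myc, the growth-promoting transcription factor gene, to Gsdmc over 1785.6 kb, and held 89 members, of which 11 rose and 2 fell. The largest rise there was at chr15:63411780-63412108, 1421.4 kb from Myc, with control standard values of 1.27, 1.27 and 1.52 and control DDC values of 3.28, 3.82 and 3.30 (2.11 ± 0.26, limma adjusted p = 4.6e-05). Of the 11, 3 lay between 115.9 and 330.6 kb from Myc, 2 of these within the lncRNA gene Pvt1, and 4 more between 401.6 and 510.4 kb.

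Both directions were interleaved in the interval from Maf, a bZIP transcription factor gene, to Dynlrb2, where 6 of 50 members rose and 4 fell. A pair of neighbours in the lncRNA gene Gm31037 went opposite ways. The region over the start of Gm31037 shown above, chr8:115856250-115857148, went from 3.79, 4.12 and 3.80 to 3.21, 2.98 and 2.69 in controls (-0.94 ± 0.18, limma adjusted p = 0.00279). Next to it, chr8:115861291-115861840 went from 2.32, 1.96 and 1.42 to 3.53, 3.76 and 4.01 (1.86 ± 0.27, limma adjusted p = 0.000303). Neither pair of control groups overlapped, and both members were also called, in the same directions, in Fbxl5-deleted mice.

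Next to Klf4, a Krüppel-like factor gene of epithelia, 8 of the 48 members up to Actl7b rose and 2 fell. A cluster of 3 rises lay 199.5, 200.8 and 243.3 kb from Klf4, by 1.40 ± 0.32, 1.56 ± 0.27 and 1.29 ± 0.36. One of the falls, at 217.2 kb, lay among them (-1.07 ± 0.28). The interval from Zfp608 to Gramd3 held 6 rises and 3 falls among 38 members. In the other well-populated intervals fewer members were called: 4 up and 1 down of 67 from Camk1g to Plxna2, 5 up and 2 down of 67 from Nmbr to Cited2, and 1 up and 2 down of 66 from Klf14 to Mkln1, where 55 of the 66 overlapped non-coding genes.

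In 3 intervals at least 7 members were called and all rose; these were singled out after their values were seen, from 10 intervals with 7 or more called members. Between Zpld1 and Nfkbiz, which encodes an atypical IκB protein induced in inflammation, 8 of 15 members rose, the 8 lying within 182.7 to 314.1 kb of Zpld1. Their differences ran from 0.85 ± 0.25 to 2.01 ± 0.29, and the median over the 15 was 0.85 log2. From Prl5a1 to Sox4, a SOX transcription factor gene, 7 of 39 rose by 1.00 ± 0.19 to 1.91 ± 0.30, and 5 of the 7 overlapped the lncRNA gene 2610307P16Rik. From Nucb2 to Xylt1, 7 of 17 rose by 0.59 ± 0.14 to 2.57 ± 0.26, and the 5 between 503.5 and 641.9 kb from Nucb2 were consecutive members. In Fbxl5-deleted mice 3, 5 and 3 members of these intervals rose and none fell.

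**Figure D4:**
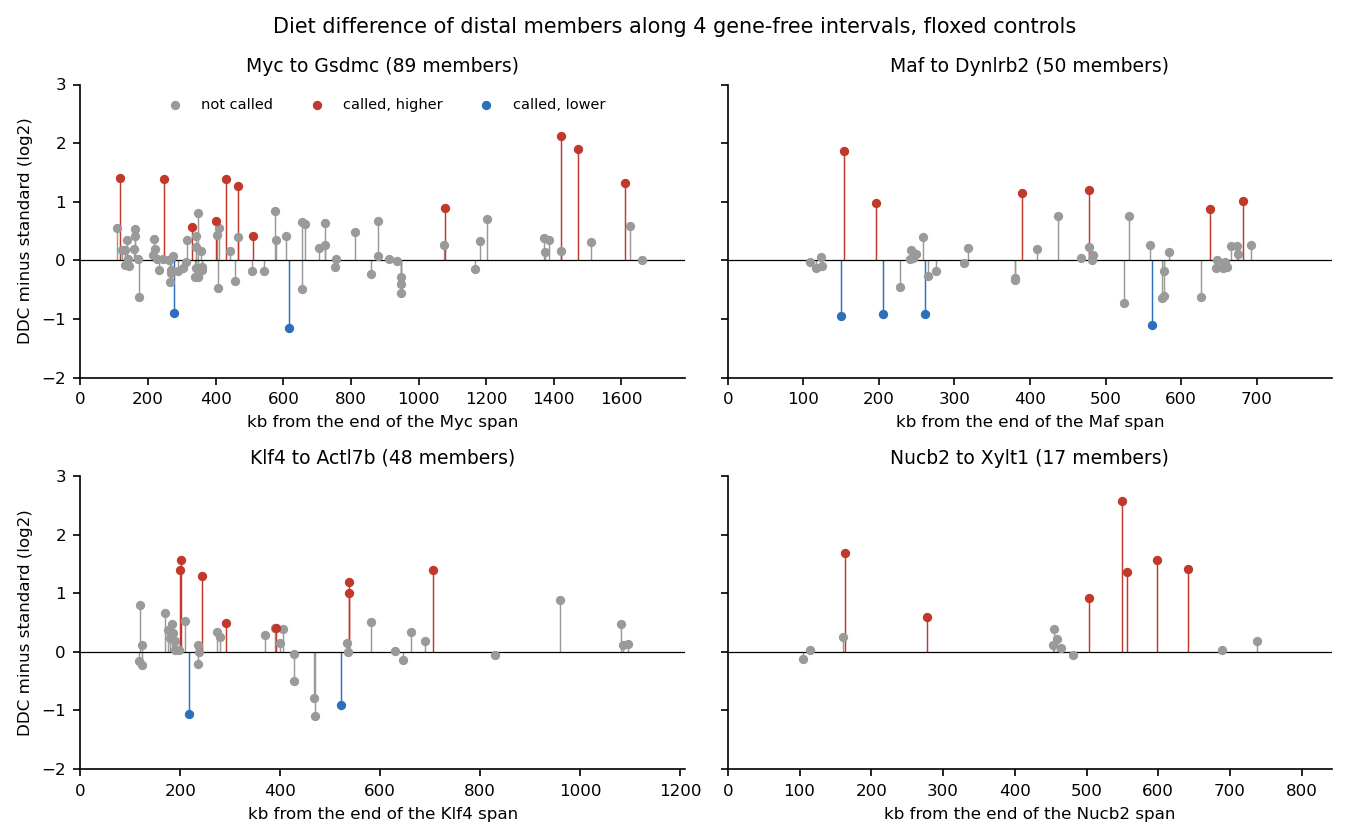
Difference between DDC and standard diet in floxed controls (log2) for each distal member, by its distance in kb from the end of the left-hand gene, in 4 gene-free intervals. Red and blue points are members called higher and lower, grey points members not called; 11 rise and 2 fall from Myc to Gsdmc, 6 and 4 from Maf to Dynlrb2, 8 and 2 from Klf4 to Actl7b, and 7 and 0 from Nucb2 to Xylt1.

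Members were also grouped by lists of flanking genes, counting a member when the nearest protein-coding gene on either side was in the list. Next to 17 early response and stress genes (such as Myc, Btg1 and Klf4) lay 485 members, of which 50 rose and 11 fell in controls. Of these members 12.6% were called, beside 11.01% of all members and 7.01% of all regions tested. Their median difference was 0.11 log2, beside 0.01 over all members. They include the 13 called of 89 from Myc to Gsdmc and the 10 of 48 from Klf4 to Actl7b, intervals already named for their calls. Next to 77 developmental transcription factor genes 63 of 995 rose and 39 fell, and next to 49 genes of signalling ligands, receptors and regulators 33 of 589 rose and 35 fell. Adhesion, synapse and channel genes flanked 1007 members, with 40 rises and 61 falls and a median of -0.05. Liver transcription factor genes flanked 321, with 17 rises and 9 falls (8.10% called), and lipid, drug and hepatocyte metabolism genes 73, with 2 rises and 5 falls. Markers of other liver cells flanked 73, with 6 rises and 2 falls, and olfactory and related receptor genes 22, with 2 rises and 1 fall.

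Opposite changes lay on either side of Foxa2, a pioneer transcription factor gene of liver and endoderm. The region at chr2:147560501-147561272, 481.6 kb from it toward Pax1, went from 4.29, 4.28 and 3.80 in control standard to 2.30, 2.70 and 2.41 in control DDC libraries (-1.65 ± 0.29, limma adjusted p = 0.00131). The region at chr2:148273871-148274382, 226.9 kb from Foxa2 toward the somatostatin receptor gene Sstr4, went from 2.09, 1.27 and 1.27 to 3.71, 4.25 and 2.29 (1.88 ± 0.38, limma adjusted p = 0.00463). Neither pair of control groups overlapped. In Fbxl5-deleted mice the fall was called as well (-1.84, limma adjusted p = 0.00113), while the value toward Sstr4 differed by 1.06 (adjusted p = 0.144). The fall toward Pax1 was not called in either genotype when a peak had to cover 50% of its region (limma adjusted p of 0.164 in controls and 0.42 in deleted mice).

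Among signalling genes, a region 370.2 kb from Nrg1, which encodes the ErbB ligand neuregulin, was absent from all 3 control standard lists and had control DDC values of 3.59, 3.62 and 3.17, so its rise of 2.19 has no true size (limma adjusted p = 2.28e-05; 0.19 when a peak had to cover 50% of its region). A region 158.9 kb from Ghr, the growth hormone receptor gene that hepatocytes express, went from 3.78, 3.18 and 3.42 to 1.85, 1.27 and 2.52 (-1.58 ± 0.29, limma adjusted p = 0.00177). The control groups did not overlap at Ghr. A region 120.6 kb from Mdga2, an adhesion gene of neurons, rose by 2.03 ± 0.28, from 1.89, 1.68 and 1.52 to 3.77, 3.88 and 3.53.

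Among metabolic genes, a region 114.1 kb from the amino acid transporter gene Slc38a4 went from 4.08, 3.83 and 4.03 to 2.55, 2.14 and 2.96 (-1.43 ± 0.31, limma adjusted p = 0.00753). That call was lost without control DDC library 2 (adjusted p = 0.0541) and with fold enrichments not ranked (0.0803). A region 379.9 kb from Cyp7b1, the oxysterol hydroxylase gene of bile acid synthesis, went from 2.73, 2.19 and 2.22 to 3.18, 3.23 and 3.09 (0.79 ± 0.20, adjusted p = 0.0216). The groups were separate, but the call was lost without control standard library 2 or 3 or control DDC library 1 or 2 (adjusted p of 0.0882, 0.0833, 0.0647 and 0.0845), and with 50% coverage of the region by a peak (0.075).

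Around Sox9, a transcription factor gene used as a marker of cholangiocytes, a region 166.1 kb away (chr11:112615511-112616079) went from 1.27, 1.45 and 1.27 in control standard to 3.66, 4.12 and 2.79 in control DDC libraries. Every DDC value exceeded every standard value, and the rise was 2.19 ± 0.31 (limma adjusted p = 0.000224). In Fbxl5-deleted mice it went from 1.82, 1.84 and 1.27 to 2.23, 2.60 and 3.08, a difference of 0.99 that was not called (adjusted p = 0.092). Another region 784.8 kb from Sox9 was listed in all 3 control standard libraries (1.66, 2.24 and 2.87) and in no DDC library, so its fall has no true size (adjusted p = 0.0326). That call was lost without any 1 of the 5 control libraries other than standard 1 (adjusted p of 0.0782 to 0.159).

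Members over lncRNA starts had higher values than other members and a share called of 9.59%, beside 11.01% of all members. Their median value was 2.87, against 1.87 for other members, and 63.7% were in all 12 lists. In controls 9 of the 146 rose and 5 fell. The member over the start of 6030442E23Rik (chr7:71216623-71217288), whose window is the first shown above, went from 1.89, 2.52 and 1.73 to 3.28, 3.82 and 4.05 (1.67 ± 0.27, limma adjusted p = 0.000621). The member over the start of Gm3716 (chr5:64610304-64611071) went from 2.41, 1.90 and 2.42 to 3.82, 3.65 and 3.73 (1.49 ± 0.20, limma adjusted p = 0.000125). Both pairs of control groups were separate. When a peak had to cover 50% of its region, the member over Gm3716 differed by 0.85 in controls and was no longer called (adjusted p = 0.649). In Fbxl5-deleted mice the member over 6030442E23Rik differed by 0.25 and was not called (limma adjusted p = 0.663). Its values there overlapped, at 3.03, 2.57 and 2.71 on standard diet and 2.71, 2.80 and 3.56 on DDC. The member over Gm3716 was called there (0.865, adjusted p = 0.0204), but not without deleted standard library 1 (0.0635) or 3 (0.0709).

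The start of Mexis, a lncRNA gene next to the cholesterol transporter gene Abca1, lay in a member at chr4:53269105-53270314, 109.1 kb from Abca1. It went from 2.98, 3.41 and 3.03 to 2.17, 2.11 and 2.05 in controls (-1.03 ± 0.26, limma adjusted p = 0.0188). The groups did not overlap, but the call was lost without control standard library 2 (adjusted p = 0.0965) or control DDC library 2 (0.0607) or 3 (0.0525). It was also lost with 50% coverage of the region by a peak (limma adjusted p = 0.31), all listed peaks (0.117) or fold enrichments not ranked (0.0809). In Fbxl5-deleted mice the member over Mexis differed by -0.47 and was not called (limma adjusted p = 0.36). The strongest members over lncRNA starts, at Gm41062 near the kinase gene Map3k1 (4.28 to 4.72 over 12 libraries) and at Gm30147 near the Wnt inhibitor gene Dkk2 (4.02 to 4.57), were not called. Members that overlapped any lncRNA gene were called in 9.56% of cases in controls, members free of annotated genes in 11.6%, and none of the 26 over immune receptor gene segments was called.

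In Fbxl5-deleted mice the DDC diet raised 385 members and lowered 127, 5.09% of members beside 3.15% of all regions tested (3.83% raised against 2.42%, and 1.26% lowered against 0.735%). The median difference was 0.06 log2 over members and 0.01 over all regions. Of those raised, 72 were absent from all 3 deleted standard lists, and of those lowered 27 from all 3 deleted DDC lists. The count was 338 without deleted DDC library 1 (64 lowered), 255 without deleted DDC library 2 (180 raised, 75 lowered) and 325 without deleted DDC library 3 (56 lowered). Without deleted standard library 1 the number raised was 249, and without deleted standard libraries 1 and 3 together the count was 156 (86 raised, 70 lowered). It was 233 when only the 6 deleted libraries were fitted, and 126 (105 raised, 21 lowered) when a peak had to cover 50% of its region. The split was 557 raised and 50 lowered with fold enrichments not ranked, and 233 and 194 with all listed peaks. By distance, the share called was 2.64% in gene spans, 4.37% at 10 to 50 kb and 4.67% at 50 to 100 kb. Beyond the limit it was 5.16% at 100 to 200 kb, 5.43% at 200 to 500 kb, 3.09% at 500 kb to 1 Mb, below the classes from 10 to 100 kb, and 5.86% over 1 Mb. Markers moved with diet here too, and their part in the counts was not tested: the mean value at hepatocyte markers was 2.66 to 2.77 in deleted DDC and 2.78 to 3.09 in deleted standard libraries, with no overlap. The deleted groups overlapped at the other 5 marker sets, among them macrophages (2.06 to 2.15 and 1.91 to 2.39) and Cd3e and Cd4 (2.39 to 2.52 and 2.26 to 2.47).

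Several of the leading members in deleted mice were those named in controls. The largest rise was at the region between Nmbr and Cited2, with values of 1.82, 1.27 and 1.27 in deleted standard and 4.16, 4.26 and 4.05 in deleted DDC libraries (2.70 ± 0.29, limma adjusted p = 5.27e-05). The region at chrX:99613117-99613749, 141.8 kb from the ubiquitin ligase gene Pja1, went from 1.27, 1.38 and 2.19 to 3.77, 3.94 and 4.05 (2.31 ± 0.24, limma adjusted p = 5.27e-05). Its control values went from 2.25, 2.39 and 2.87 to 4.07, 4.14 and 3.68, a smaller difference of 1.46 that was also called. The region at chr13:53929279-53929864, 121.3 kb from the dopamine receptor gene Drd1 and 456.5 kb from the homeobox gene Msx2, went from 1.27, 1.38 and 1.63 to 3.23, 3.86 and 3.65 in deleted mice (2.15 ± 0.25). The groups were separate in each. The regions near Kcnb2, Tent5a and Maf described above completed the 6. The rises near Kcnb2 and Maf were 2.16 and 2.11; the region near Tent5a was absent from all 3 deleted standard lists, so its rise has no true size. The call near Kcnb2 in deleted mice was lost when a peak had to cover 50% of its region (adjusted p = 0.379).

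The largest fall in deleted mice was again near Smarca2, from 3.27, 3.99 and 3.72 to 1.27, 1.27 and 1.76 (-2.23 ± 0.24, limma adjusted p = 5.27e-05). A region at chr12:20927858-20928553, 182.8 kb from the Arf regulator gene Asap2, was listed in all 6 standard-diet libraries (2.42 to 3.41) and in none of the 6 DDC libraries, so it has no fold. A region at chr2:169075115-169075643, 119.5 kb from Zfp64, went from 3.38, 3.90 and 3.07 to 1.91, 1.94 and 1.52 (-1.66 ± 0.26). The groups did not overlap in any of the 3. The fall near Foxa2 and that near Btg1 (-1.55) were also among the 6, with one at chr18:58335594-58336216, 125.0 kb from the fibrillin gene Fbn2, where values went from 3.27, 3.41 and 3.43 to 1.50, 2.37 and 1.52 (-1.57). When a peak had to cover 50% of its region, the fall near Smarca2 in deleted mice was no longer called (-0.91, adjusted p = 0.527), nor were the 5 others.

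The 2 diet comparisons share no library, so the direction in one can be read against the other, but absent regions limit this. In controls, 225 of the rises were absent from every standard list and 117 of the falls from every DDC list. Where all deleted lists of that diet lacked such a region too, its difference in deleted mice could not have the opposite sign. The same limit applies to members called in deleted mice. Its part in the shares below was not tested. Of the 675 members that rose in controls, 651 (96.4%) had a positive difference in deleted mice, beside 58.8% of all members, and 255 rose there as well. Of the 432 that fell in controls, 370 (85.6%) had a negative difference in deleted mice, beside 41.0% of all members, and 73 fell there as well. Of the 385 and 127 called in deleted mice, 97.4% and 98.4% had the same sign in controls. No member was called in opposite directions. Members that rose in controls had a median difference of 1.13 there and 0.75 in deleted mice, and members that fell -0.98 and -0.43. Members raised in deleted mice had a median of 1.15 there and 1.03 in controls, and members lowered -1.09 and -0.92. The size was smaller in the genotype that did not choose the members, and the part of the choice in this was not tested. In all, 1291 members were called in at least 1 genotype.

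**Figure D5:**
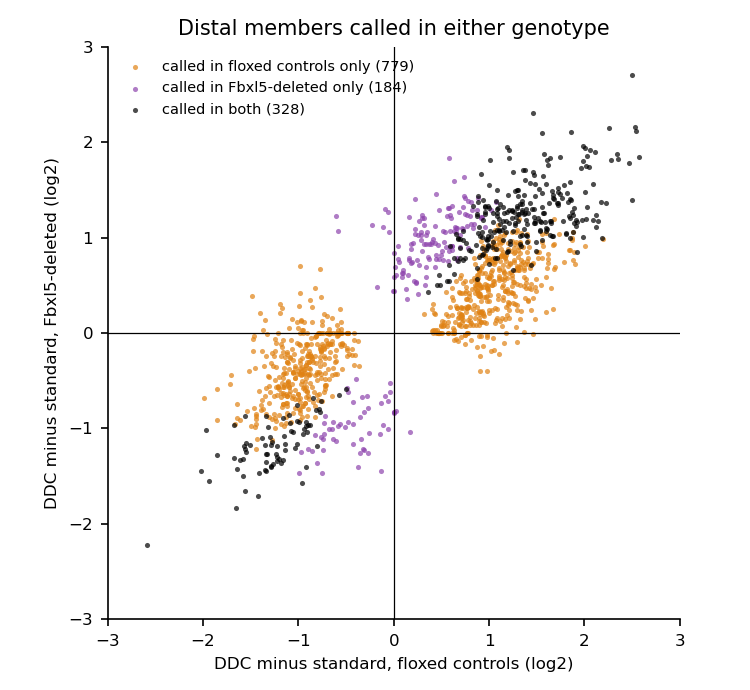
Difference between DDC and standard diet (log2) in floxed controls (horizontal) and Fbxl5-deleted mice (vertical) for the 1291 distal members called in at least 1 genotype. Each point is a member: 328 were called in both, 779 in controls only and 184 in deleted mice only, and the 328 lie in the upper right and lower left of the plot.

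Between genotypes on the standard diet a single member was called, 0.00995% of members beside 0.000722% of all regions tested, and it was the only region called in this comparison. It lay at chr2:19796710-19797252, 135.4 kb from the deubiquitinase gene Otud1 and 113.0 kb from Etl4, overlapped no annotated gene and was in all 12 lists. Values were 4.17, 4.24 and 4.23 in control standard and 3.03, 3.54 and 3.17 in deleted standard libraries, with no overlap. The difference was -0.97 ± 0.13 log2 (limma adjusted p = 0.0451). It was lost in 11 of the 12 fits that each left out 1 library, with adjusted p up to 0.197, and without deleted standard libraries 1 and 3 together it was -0.68 (adjusted p = 0.273). When a peak had to cover 50% of the region, it was -1.55 and not called (adjusted p = 0.411). On DDC the values were 4.55, 4.58 and 4.62 in control and 4.38, 4.14 and 4.01 in deleted libraries, also separate but not called. At an unadjusted p under 0.05 lay 1190 members (11.8%), beside 8.05% of all regions.

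On DDC no member and no other region was called between genotypes (0% of all regions tested). The lowest adjusted p was 0.171, and 875 members (8.70%) had an unadjusted p under 0.05, beside 5.93% of all regions. The difference of the diet effects between genotypes gave no called member either (0% of all regions), with a lowest adjusted p of 0.849 and 771 members (7.67%) at an unadjusted p under 0.05, beside 5.86%. Both counts depended on the overlap rule. When a peak had to cover 50% of its region, 26 distal regions were called between genotypes on DDC (25 lower in deleted mice). That was 0.302% of distal regions, beside 0.194% of all regions. For the difference of diet effects 7 were called, 0.0813% beside 0.0626%. With the overlap of 1 bp used here, members called for diet in 1 genotype only are not shown to differ between genotypes. At the region near Sox9, for example, the diet difference was 2.19 in controls and 0.99 in deleted mice, and the difference between them, -1.20 ± 0.44, had an adjusted p of 0.849 in limma.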

How the data were processed

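ATAC-seq peak lists of 12 libraries were used. MACS2, Bowtie2, fastp, Picard, SAMtools, deepTools, bedtools and the build mm10 are listed in the submitters' processing notes; their versions, settings and any transposase shift of reads are not given there. The authors deposited 1 peak list per library, with a fold enrichment (a ratio over the local background) per peak. Values of −log10 p and −log10 q in the deposited lists were the caller's own, and the deposited score equals 10 times the −log10 p without decimals; p and q values of the authors served only to describe peaks. The lists hold no read counts, so depth is unknown and no counting interval is given.

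Lines with equal positions were joined. On chromosomes 1 to 19 and X the 137000 peaks with the highest fold enrichment were kept per library, because list lengths differed. Kept peaks that overlapped by 1 bp were merged into 292576 regions, and 138502 held in at least 3 lists were tested. Ranks within a library, ties averaged, were mapped to the mean log2 fold distribution, so a shift common to every region leaves no trace. Distances were measured to protein-coding gene spans of the RefSeq table for GRCm38.p6, which gives neither exons nor strand.

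limma 3.58.1 in R 4.3.3 (lmFit, eBayes with trend and robust) fitted 4 group means to 12 libraries. Tests were two-sided, with Benjamini-Hochberg adjustment over all tested regions, and a region was called at an adjusted p under 0.05. The steps were tested on simulated data. Values per library were compared by exact permutation tests. Named members are the 6 largest called rises and falls per comparison, the 6 strongest, the 4 farthest, the 4 widest, the 4 intervals with most members and the 4 with most called, the 3 regions on either side of 100 kb, and the largest called rise and fall per list of flanking genes. Members over lncRNA starts and miRNA hairpins were added after values were seen. The members, gene lists and motifs were chosen with earlier results of these data known. Alternatives covered the distance, list length, overlap, ranking, samples fitted and each library left out. One marker gene examined is not reported here. Whether the replicate numbers shared across groups pair the mice was checked and is given with the alternatives. The other software was matplotlib 3.10.9, pandas 2.3.3, scipy 1.17.1, numpy 2.4.6 and Python 3.11.15.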

Additional observations from a re-analysis of the deposited data

How the results depend on the processing

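Every alternative for the diet comparisons left the share of distal regions called above the share of all regions called, in 24 of 24 for each genotype. Of 1232 refits of 59 calls of named members, 1118 kept the call and direction, 114 lost the call and 0 reversed. Of these refits 708 left out 1 library, and 54 of them lost the call. Where the library left out was not in the comparison, the difference could not change, only its p. Many members were named for their large differences, so a reversal was unlikely from the start. With 50% coverage 27 of 53 calls were lost. The number of distal regions called in floxed controls was 1767 with a limit of 50 kb, 548 with 200 kb, 163 more than 100 kb from any annotated gene and 547 when a peak had to cover 50% of its region; in Fbxl5-deleted mice these were 828, 250, 68 and 126, with 156 without Fbxl5-deleted standard libraries 1 and 3 and 233 when only the 6 libraries compared were fitted. With 1 library left out the counts ranged from 591 to 1182 in controls, from 255 to 472 in deleted mice and from 0 to 17 for genotype on the standard diet. That last count, 1 as reported, was 0 with a limit of 200 kb, the 100000 strongest peaks, unranked fold enrichments, and the 6 libraries compared alone. It was 16 with all listed peaks (0.131% of distal regions, beside 0.103% of all regions). With 50% coverage it was 19 (0.221% beside 0.125%). At 50% coverage 26 distal regions were called between genotypes on DDC (0.302% beside 0.194%). For the difference of diet effects 7 were called (0.0813% beside 0.0626%). A coverage of 50% leaves fewer regions (8606 distal) and gives the lowest value to partly covered peaks; otherwise the cause was not tested.

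The distal share of peaks changed sign without Fbxl5-deleted standard libraries 1 and 3, to 0.00158 percentage points between diets and -0.0502 between genotypes, and to -0.054 between genotypes with the 100000 strongest peaks. The genotype difference in relative strength of -0.0571 was -0.0334 without those 2 libraries, which leaves 1 library in that group. With 1 library left out it ranged from -0.0692 to -0.0476. The unadjusted exact permutation p was 0.055 without control standard library 1, control DDC library 2, or deleted DDC library 1 or 3. It was 0.05 without control standard library 2, and under 0.05 in the other such fits.

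Replicate numbers are shared across groups but the labels do not say that they mark a shared litter or day. Same-numbered libraries' deviations correlated at -0.0238 to 0.0565 over 18 pairs and others at -0.0434 to 0.0259 over 36, so the numbers were not taken as a pairing. With a replicate block 1072 distal regions were called in controls (645 higher), 508 in deleted mice (384 higher) and 0 between genotypes on the standard diet, and 1 of 59 calls of named members was lost. The lists give no counts, so how far depth limits these results is not known.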
